A study of Mus musculus with 4 samples.

Results

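Mature dendritic cells that carry Ccr7, the chemokine receptor that guides dendritic cells to lymph nodes, and Fscn1, which encodes the actin-bundling protein fascin, were picked out of the CD45+ immune cells of mouse skin wounds. A cell was taken when its raw counts held at least 2 UMIs of Ccr7, at least 2 of Fscn1 and at least 1 of the MHC class II gene H2-Aa, with none of the T cell gene Cd3e or of Hdc, a gene of neutrophils and mast cells. Of the 19827 cells that had 200 or more genes detected and no more than 10% of UMIs from mitochondrial genes, 217 met this rule and are called Ccr7 Fscn1 cells here. A UMI is a molecular tag that marks 1 captured RNA molecule.

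The cells came from 3 mm excisional wounds on the back of 8-week-old male mice, labelled C57BL6/J in all 4 libraries and either wild-type (Angptl4+/+) or lacking the secreted lipase inhibitor angiopoietin-like 4 (Angptl4-/-, the UNQ171 line from MMRRC). Wounds were taken 1 or 5 days after wounding (days post wounding, dpw), live CD45+ cells were sorted, and 1 droplet library (3' end chemistry) was made for each genotype and day. The number of mice behind each library is not given in the sources used here. Values for the 4 libraries are given throughout in the order Angptl4+/+ 1 dpw, Angptl4+/+ 5 dpw, Angptl4-/- 1 dpw and Angptl4-/- 5 dpw. The deposited UMIs totalled 32962595, 29746688, 27472052 and 26981596, of which the Ccr7 Fscn1 cells held 391070, 1441170, 294031 and 688843. Angptl4 had 47 and 78 UMIs over all passing cells of Angptl4+/+ wounds at 1 and 5 dpw and 0 in both Angptl4-/- libraries, and it had no UMI in Ccr7 Fscn1 cells of any library. With 1 library per condition no difference between conditions was tested, and intervals in brackets are 95% intervals that cover counting error only.

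Dendritic cells take up antigen in the skin, and on maturation they lower uptake, carry peptides on MHC molecules, raise costimulatory proteins and turn on Ccr7, whose ligands lead them along lymphatic vessels to T cells. The same program brings in chemokines that draw T cells, regulatory genes such as Cd274 (PD-L1), and genes of the NF-kB pathway, whose noncanonical arm runs through RelB. Skin dendritic cells with these genes are found in wounds and also in skin at rest.

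Levels of the rule genes are given as a description only, since they chose the cells. Ccr7 (chr11:99144196-99155077, minus strand of GRCm38) stood at 2317, 1372, 1684 and 1569 CPM, where CPM is the summed UMIs of a gene per 1000000 UMIs of the class in that library. Fscn1 (chr5:142960343-142973185, plus strand) stood at 2194, 1928, 2486 and 1964 CPM. At the edge of the rule, 2 of the 217 cells had exactly 2 Ccr7 UMIs and 2 had exactly 2 Fscn1 UMIs. Just outside it lay 6 cells with 1 Ccr7 UMI and at least 2 of Fscn1, 11 cells with 1 Fscn1 UMI and at least 2 of Ccr7, and 91 cells with at least 2 Ccr7 UMIs and none of Fscn1. A further 21 cells had both genes but no H2-Aa, 5 had a Cd3e UMI and 22 had an Hdc UMI.

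The name was checked against markers that the rule did not use. Ccl22, Cd83, Cd40, Relb, Il4i1, Socs2, Cacnb3, Tmem123 and Marcksl1 had UMIs in every library of Ccr7 Fscn1 cells, and Tmem123 was seen in 217 of 217 cells, Relb in 214 of 217 cells (98.6%) and Ccl22 in 172 of 217 cells (79.3%). In neutrophils of the same libraries, gated on Hdc and Csf3r, the shares of cells with a UMI were 7.15 to 12.2% for Tmem123, 12.8 to 18.3% for Relb and 0.138 to 0.490% for Ccl22. Median UMIs were 13410.5, 12397, 13178 and 12828 per Ccr7 Fscn1 cell and 5322.5, 3327, 5282 and 3515 per neutrophil, so the shares were read at different depths. The dendritic cell genes Flt3 (173 to 304 CPM) and Zbtb46 (58.3 to 81.8 CPM) were present in all 4 libraries. Marcksl1 was also found in neutrophils, with 498, 751, 767 and 873 CPM. Itgax, which encodes CD11c, was low at 5.11, 12.5, 6.80 and 16.0 CPM.

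Markers of other cell types were summed over each list. Cd3e of the T cell list and Hdc of the neutrophil list are at 0 by the rule, which removed cells with either gene, so the sums of these lists are partly set by it. Mast cells also carry Hdc, so the mast cell sum is partly set by the rule too. NK cell markers came to 0, 5.55, 0 and 0 CPM, keratinocyte and fibroblast markers to at most 1.45 CPM in any library, and mast cell markers to 0 in all 4. T cell markers came to 30.7, 52.0, 13.6 and 24.7 CPM, with Cd8a or Cd4 at most 20.8 CPM and Trac leading in Angptl4-/- wounds at 1 dpw. The receptor genes Cd3d and Cd3g were at 0 outside Angptl4+/+ wounds at 5 dpw, where they had 6.94 and 7.63 CPM. B cell markers came to 30.7, 5.55, 0 and 7.26 CPM, with Cd79a and Ms4a1 at 0 in every library. Igkc had 25.6 CPM in Angptl4+/+ wounds at 1 dpw, and Cd79b had 5.11, 5.55, 0 and 5.81 CPM. Macrophage markers came to 76.7, 116, 91.8 and 27.6 CPM, with C1qc at 0, 0.694, 0 and 0 CPM and Apoe, the most abundant in Angptl4+/+ wounds at 5 dpw, at 12.8, 75.6, 6.80 and 0 CPM. Csf1r was the most abundant macrophage marker in Angptl4+/+ wounds at 1 dpw (23.0 CPM) and in Angptl4-/- wounds at 5 dpw (16.0 CPM). Monocyte markers came to 58.8, 182, 30.6 and 26.1 CPM, where Plac8 led with 51.1, 149, 27.2 and 24.7 CPM and Ace was at 0. Of the plasmacytoid dendritic cell markers only Bst2, which interferon also induces, was above 5 CPM (401, 263, 207 and 136 CPM). Neutrophil markers came to 427, 96.4, 316 and 179 CPM, led by S100a9 (202, 56.9, 156 and 92.9 CPM), while the neutrophil receptor gene Csf3r was at 0 in both 1 dpw libraries. A count of 0 allows a level of up to 7.67, 2.08, 10.2 and 4.36 CPM (3 UMIs). S100a9 in the gated neutrophils of the same libraries was 101140.0, 55852, 108561 and 54216 CPM. More than 5 UMIs of S100a8 and S100a9 together were found in 9, 0, 4 and 2 of the Ccr7 Fscn1 cells. The Langerhans cell genes Cd207 or Epcam had a UMI in 27 of 217 cells, Xcr1 or Clec9a in 4, and Cd209a, Clec10a or Mgl2 in 20. Of the 27, 22 held Epcam alone, 3 held Cd207 alone and 2 held both.

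No barcode was shared between Ccr7 Fscn1 cells of different libraries, and 5 to 15 barcodes were shared by each pair of libraries over all passing cells. The 4% of cells with the highest doublet scores in each library held 4 Ccr7 Fscn1 cells, all from Angptl4+/+ wounds at 5 dpw. These cells were kept.

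**Figure D1:**
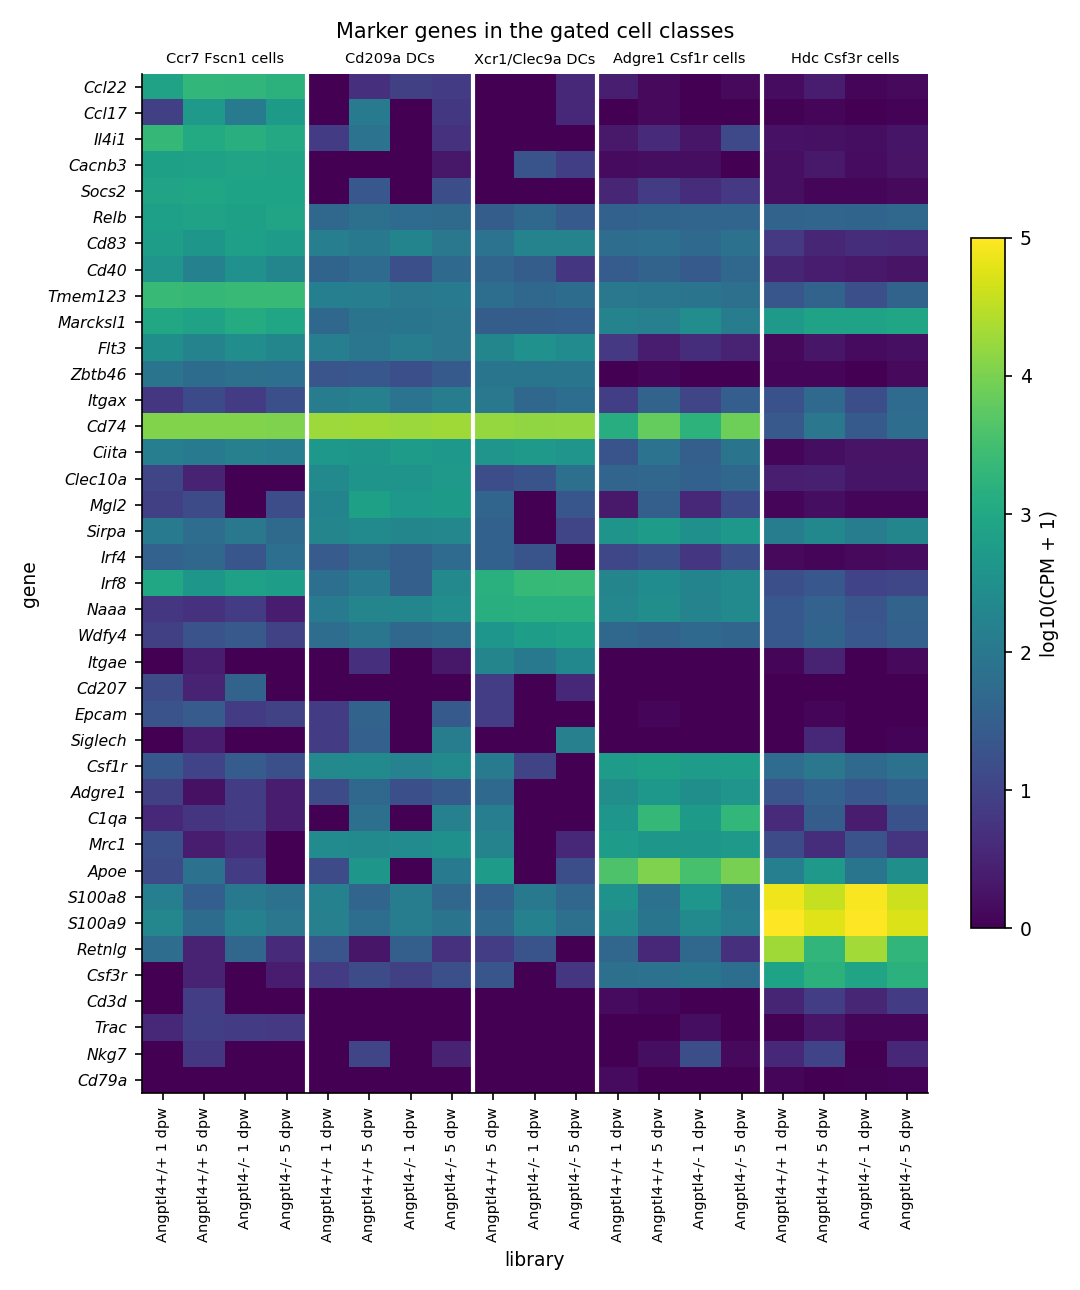
Heat map of marker genes (rows) in each library (columns) for Ccr7 Fscn1 cells, Cd209a and Xcr1/Clec9a dendritic cells (DCs), gated macrophages (Adgre1 Csf1r cells) and gated neutrophils (Hdc Csf3r cells); colour is log10(CPM + 1), and the Xcr1/Clec9a library with 2 cells is left out. Ccl22 lies between 749 and 2075 CPM in Ccr7 Fscn1 cells and at or below 7.80 CPM in Cd209a cells, and S100a8 and S100a9 are far below their levels in neutrophils.

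Ccr7 Fscn1 cells were more frequent among CD45+ cells at 5 dpw than at 1 dpw in both genotypes, and at 5 dpw they were more frequent in Angptl4+/+ than in Angptl4-/- wounds. They numbered 28 of 5346 cells, 0.524% (0.348 to 0.756), in Angptl4+/+ wounds at 1 dpw, and 112 of 4945 cells, 2.26% (1.87 to 2.72), at 5 dpw. In Angptl4-/- wounds they numbered 23 of 4798 cells, 0.479% (0.304 to 0.718), at 1 dpw, and 54 of 4738 cells, 1.14% (0.857 to 1.48), at 5 dpw. The 5 dpw share lay above the 1 dpw share in Angptl4+/+ wounds by 1.74 percentage points (1.30 to 2.22), and in Angptl4-/- wounds by 0.660 percentage points (0.303 to 1.04). Angptl4-/- minus Angptl4+/+ was -0.0444 percentage points (-0.326 to 0.244) at 1 dpw, an interval that includes 0, and -1.13 percentage points (-1.65 to -0.613) at 5 dpw. The share at 5 dpw in Angptl4-/- wounds was 0.503 times that in Angptl4+/+ wounds (0.357 to 0.702). A share depends on all the other sorted cells of its library, so fewer of these cells and more of the others cannot be told apart, and mouse-to-mouse spread was not measured.

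Counted against other dendritic cells alone, the share was lower at 5 than at 1 dpw in both genotypes, although the interval in Angptl4+/+ wounds includes 0. Dendritic cells with at least 2 UMIs of Cd209a and no Ccr7, Xcr1 or Clec9a (Cd209a cells) numbered 10, 70, 8 and 60, and those with at least 2 UMIs of Xcr1 and Clec9a together and no Ccr7 or Cd209a (Xcr1/Clec9a cells) numbered 2, 8, 5 and 20. Ccr7 Fscn1 cells made up 70.0% (53.5 to 83.4) of 40 cells of these 3 classes together in Angptl4+/+ wounds at 1 dpw and 58.9% (51.6 to 66.0) of 190 cells at 5 dpw. The Angptl4-/- shares were 63.9% (46.2 to 79.2) of 36 cells at 1 dpw and 40.3% (31.9 to 49.1) of 134 cells at 5 dpw. At 5 dpw the Angptl4-/- minus Angptl4+/+ difference was -18.6 percentage points (-29.1 to -7.60). The 1 dpw interval of that difference, -26.3 to 14.5, includes 0. The 5 minus 1 dpw difference was -11.1 percentage points (-24.9 to 5.79) in Angptl4+/+ wounds and -23.6 percentage points (-39.4 to -5.21) in Angptl4-/- wounds.

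**Figure D2:**
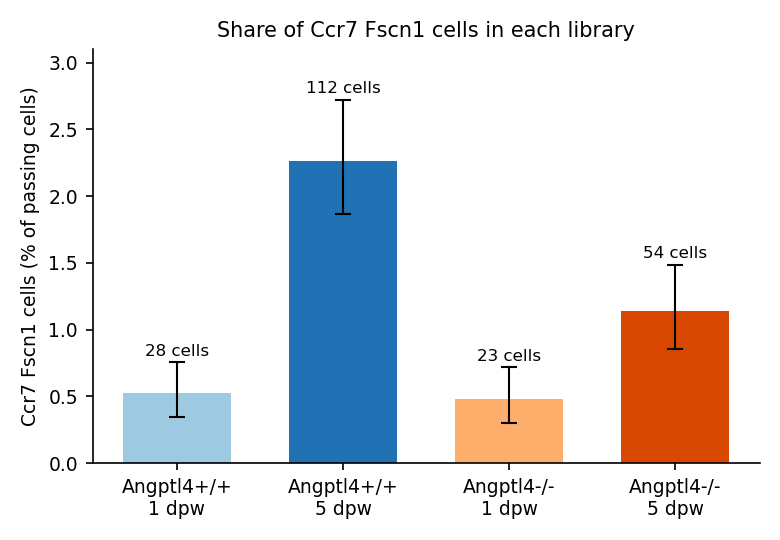
Ccr7 Fscn1 cells as a percentage of the passing CD45+ cells of each library (bars), with exact 95% Clopper-Pearson intervals (error bars, counting error only) and the number of cells above each bar. The bars run from 0.479% in Angptl4-/- wounds at 1 dpw to 2.26% in Angptl4+/+ wounds at 5 dpw, and the intervals of both 5 dpw libraries lie above those of both 1 dpw libraries.

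To ask which differences from other dendritic cells repeat over libraries, UMIs were summed per library and class and compared within libraries with edgeR's quasi-likelihood test, with the library as a block. The test has n = 4 libraries for Cd209a cells and n = 3 for Xcr1/Clec9a cells, since 1 library held only 2 of the latter. The classes were cut on 8 genes that were not tested, and cells chosen by Ccr7 and Fscn1 must differ in every gene that varies with these. Of 5630 genes tested against Cd209a cells, 1349 (24.0%) were higher and 1335 (23.7%) lower in Ccr7 Fscn1 cells at an adjusted p under 0.05. Of 4274 tested against Xcr1/Clec9a cells, 925 (21.6%) were higher and 816 (19.1%) lower. The median log2 fold change over all genes tested was -0.01 and 0.02. In what follows, each fold change is Ccr7 Fscn1 cells over the named class on the log2 scale, with its SE.

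Of the 12 genes named for the largest fitted fold changes over Cd209a cells, 10 had no UMI in that class and the other two had 1. A fitted fold change against a count of 0 depends on the prior count, so these 12 are not ranked against genes such as Ccl22 that Cd209a cells did hold. Apol7c, a member of the apolipoprotein L family (chr15:77524852-77533316, minus strand), had 494, 579, 1969 and 637 CPM and 2046 UMIs in all, against 0 in Cd209a cells. Its level was at least 539-fold higher, taken against a floor of 3 UMIs over that class (adjusted p = 6.9e-13, edgeR). Apol7c was highest in Angptl4-/- wounds at 1 dpw. H2-M2, a nonclassical MHC class I gene (chr17:37480851-37483552, minus strand), had 294, 182, 463 and 543 CPM and was at least 234-fold higher. Il2ra, the alpha chain of the IL-2 receptor, had 230.1, 180.4, 231 and 184 CPM and was at least 143-fold higher. Of Mreg (melanoregulin), Tmem150c, Crispld2, Slco5a1, Sema6d, Lad1 and Car2 (carbonic anhydrase 2), Cd209a cells had no UMI either, and the lower bounds ran from 67.9-fold for Car2 to 104-fold for Mreg. Cacnb3, a calcium channel subunit (chr15:98630840-98644529, plus strand), had 706, 717, 840.0 and 767 CPM and 2085 UMIs against 1, a ratio of 1647 with a counting interval from 295 to 65081. Serpinb6b, a serine protease inhibitor, had 1608 UMIs against 1.

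In the other direction, receptors and lectins were among the genes named for the largest fitted decreases from Cd209a cells. Ccr2, the receptor that brings monocytes out of the bone marrow, had 0, 24.3, 13.6 and 1.45 CPM in Ccr7 Fscn1 cells against 830.1 to 1341 CPM in Cd209a cells (log2 fold change -6.09 ± 0.36, adjusted p = 1.5e-11, edgeR). The lectin gene Clec10a had 10.2, 2.08, 0 and 0 CPM against 250.3 to 475 CPM (log2 fold change -6.94 ± 0.40, adjusted p = 9.3e-12, edgeR). Rab3il1 had 0 UMIs in Ccr7 Fscn1 cells against 145, which makes it at least 61.2-fold lower. Cx3cr1, a chemokine receptor, had 2 UMIs against 206, the E-cadherin gene Cdh1 had 1 against 260, Arhgap15 had 2 against 255 and March1, a ubiquitin ligase that removes MHC class II from the surface, had 3 against 274. Cd244, Cd7, Cysltr1, Ppfia4 and Iqgap2 completed the 12 genes named.

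Receptors that guide migration were split in direction. Of the list of receptors for chemokines and lipid cues, 7 genes could be tested against Cd209a cells, of which 3 were higher and 4 lower. Gpr183, which senses oxysterols and positions dendritic cells, had 701, 539, 687 and 536 CPM against 138 to 227 CPM (log2 fold change 1.98 ± 0.19, adjusted p = 1.5e-08, edgeR). Ptger4, a receptor for prostaglandin E2, had 169, 124, 105 and 184 CPM against 13.2 to 43.8 CPM (log2 fold change 2.37 ± 0.26, adjusted p = 1.5e-07, edgeR). In both genes all 4 libraries of Ccr7 Fscn1 cells lay above all 4 of Cd209a cells. Cxcr4 was also higher, with 176, 34.0, 81.6 and 59.5 CPM against 40.5 to 54.6 CPM (log2 fold change 0.69 ± 0.27, adjusted p = 0.041, edgeR), but its ranges overlapped, and without the Angptl4+/+ 1 dpw library it did not pass (0.39, adjusted p = 0.27, edgeR). It also failed without either Angptl4-/- library. Among the lower genes were Ccr1, Ccr2 and Cx3cr1, receptors that take myeloid cells into inflamed tissue, with log2 fold changes of -2.70, -6.09 and -6.45.

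The list of cytoskeleton and migration genes, which holds actin regulators beside adhesion genes such as Icam1 and Itgb2 and the intermediate filament gene Vim, was more often higher than lower. Of 18 tested against Cd209a cells, 11 were higher and 4 lower, and of 19 tested against Xcr1/Clec9a cells, 11 were higher and 4 lower. Of the latter 11, the actin gene Actg1 did not pass without any 1 of the 3 libraries (0.51, adjusted p = 0.18, edgeR without Angptl4+/+ 5 dpw), and Adam8, a membrane protease, did not pass without Angptl4+/+ 5 dpw (0.54, adjusted p = 0.18, edgeR) or with cells thinned to 3000 UMIs (0.099, adjusted p = 0.88, edgeR). With cells rich in S100a8 and S100a9 left out, Actg1, Adam8, Actb and Tmsb4x did not pass against Xcr1/Clec9a cells, and Tmsb4x did not pass without any 1 library. Leaving these cells out left 2 Xcr1/Clec9a cells in Angptl4-/- wounds at 1 dpw, under the minimum of 5. That library therefore dropped out of the test, and the 2 changes cannot be told apart. Marcksl1, which binds actin at the membrane, had 936, 769.5, 1173 and 910.2 CPM against 46.1 to 93.7 CPM in Cd209a cells (log2 fold change 3.68 ± 0.21, adjusted p = 6.5e-12, edgeR) and 28.3 to 30.4 CPM in Xcr1/Clec9a cells (log2 fold change 5.09 ± 0.29, adjusted p = 4.7e-09, edgeR). Samsn1, an adaptor with an SH3 domain, had 1319, 1132, 1214 and 1597 CPM against 79.1 to 117 CPM in Cd209a cells (log2 fold change 4.05 ± 0.21, adjusted p = 3.2e-12, edgeR). Marcks, Myo1g (a myosin of leukocyte membranes), Cdc42ep3 (an effector of the GTPase Cdc42) and the adhesion gene Icam1 had log2 fold changes of 3.32, 2.67, 2.98 and 3.05 against Cd209a cells. Each was higher against both classes. The actin gene Actb and the thymosin gene Tmsb4x, which are abundant in all 3 classes, rose by 1.33 and 1.71. Itgb2, the beta chain of the leukocyte integrins, fell to 20.5, 12.5, 27.2 and 16.0 CPM from 217 to 312 CPM in Cd209a cells (log2 fold change -3.71 ± 0.23, adjusted p = 2.5e-11, edgeR). Gsn, the actin-severing gelsolin, was lower against both classes (-2.37 and -2.44). Tubb6 and Tmsb10 were also lower than in Cd209a cells, but their calls depended on single libraries. Tubb6 did not pass without Angptl4+/+ 5 dpw (-0.41, adjusted p = 0.32, edgeR) or Angptl4-/- 5 dpw (-0.68, adjusted p = 0.084, edgeR). Tmsb10 did not pass without Angptl4-/- 1 dpw (-0.39, adjusted p = 0.10, edgeR).

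Genes of the NF-kB pathway, subunits and inhibitors alike, were mostly higher in Ccr7 Fscn1 cells. Of 18 genes tested against Cd209a cells, 15 were higher and 1 lower, with a median of 1.63 against -0.01 over all genes tested. Against Xcr1/Clec9a cells 15 of 18 were higher and none lower, with a median of 2.30. Relb, the subunit of the noncanonical arm, had 652, 757, 694 and 820.2 CPM against 46.1 to 67.7 CPM in Cd209a cells (log2 fold change 3.93 ± 0.20, adjusted p = 3.3e-12, edgeR), and the lowest library of Ccr7 Fscn1 cells was far above the highest of Cd209a cells. Birc2, a ubiquitin ligase of TNF receptor complexes, had 447, 461, 510.1 and 557 CPM against 32.9 to 54.6 CPM (log2 fold change 3.97 ± 0.22, adjusted p = 4.9e-12, edgeR). Rel, Nfkb2, Traf1, Map3k14 (the kinase of the noncanonical arm) and Birc3 rose by 2.14, 2.03, 2.35, 1.74 and 2.09. Rela rose by 1.09 and Nfkb1 by 0.88, although Rela did not pass with cells thinned to 3000 UMIs (0.55, adjusted p = 0.24, edgeR). Tnfaip2, also among the 15, did not pass without Angptl4+/+ 1 dpw (0.57, adjusted p = 0.090, edgeR) or Angptl4-/- 1 dpw (0.51, adjusted p = 0.11, edgeR). With cells of over 5 UMIs of S100a8 and S100a9 left out, Tnfaip2 failed as well (0.40, adjusted p = 0.18, edgeR). Among the inhibitors, Nfkbia, Nfkbib and Tnfaip3 rose by 1.61, 2.26 and 1.17. Nfkbiz, which encodes a nuclear IkB protein, was the single gene of the list that fell against Cd209a cells (log2 fold change -0.59 ± 0.22, adjusted p = 0.029, edgeR), a call that held only with the Angptl4+/+ 5 dpw and both Angptl4-/- libraries included (without the first, -0.42, adjusted p = 0.24, edgeR) and that ended without the library block (adjusted p = 0.20, edgeR), and Nfkbie and Bcl3 did not pass the test.

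Promoters of this list are shown because its genes were higher together. RefSeq windows on GRCm38.p6 were found for 15 of the 18 genes, 19 windows in all. They were searched on both strands for the NF-kB motif GGGNNTTTCC over the 250 bases before the start, with no other motif searched. Of the 15 genes, 4 held a match in 5 windows: Rel, Nfkb2 (2 windows), Nfkbia and Tnfaip3. The motif was found in 464 of 32851 such windows over the genome (1.41%) and in 447 of 27025 genes (1.65%). A match is a description of the letters, not a site. The windows are written 5' to 3' on the strand of the gene, with the matching bases in capitals.
Nfkb2 (chr19:46305680-46305929, plus strand): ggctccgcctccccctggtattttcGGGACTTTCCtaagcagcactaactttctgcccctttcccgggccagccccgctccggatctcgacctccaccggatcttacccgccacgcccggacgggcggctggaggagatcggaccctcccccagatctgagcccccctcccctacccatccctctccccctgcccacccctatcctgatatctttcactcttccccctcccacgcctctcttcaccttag
Nfkbia (chr12:55492648-55492897, minus strand): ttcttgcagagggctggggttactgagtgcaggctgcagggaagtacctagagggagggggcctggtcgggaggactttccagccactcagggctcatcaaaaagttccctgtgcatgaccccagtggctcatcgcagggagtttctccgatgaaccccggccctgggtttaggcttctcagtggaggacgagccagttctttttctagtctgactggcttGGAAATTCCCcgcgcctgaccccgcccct
Tnfaip3 (chr10:19015411-19015660, minus strand): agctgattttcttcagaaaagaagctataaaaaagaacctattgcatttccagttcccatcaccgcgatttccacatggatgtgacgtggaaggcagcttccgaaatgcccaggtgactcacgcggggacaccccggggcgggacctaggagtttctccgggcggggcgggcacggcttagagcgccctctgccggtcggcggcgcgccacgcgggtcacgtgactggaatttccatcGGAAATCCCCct
Rel (chr11:23770970-23771219, minus strand): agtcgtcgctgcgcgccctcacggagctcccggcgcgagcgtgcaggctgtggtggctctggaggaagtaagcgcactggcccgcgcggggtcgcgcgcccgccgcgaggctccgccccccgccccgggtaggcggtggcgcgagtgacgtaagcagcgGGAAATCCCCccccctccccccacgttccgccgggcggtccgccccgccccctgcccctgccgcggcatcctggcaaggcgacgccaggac
The match began 225 bases before the start in Nfkb2, 29 in Nfkbia, 12 in Tnfaip3 and 91 in Rel. The second matching window of Nfkb2 (chr19:46304487-46304736, plus strand), not shown, held GGGGCTTTCC 11 bases before its start. All 4 genes were higher in Ccr7 Fscn1 cells than in both other classes. Nfkbia, whose product holds NF-kB in the cytoplasm and is made again on its activation, had 1746, 844, 1061 and 888 CPM against 314 to 530.2 CPM in Cd209a cells (log2 fold change 1.61 ± 0.18, adjusted p = 2.1e-07, edgeR). Nfkb2, the precursor of the p52 subunit, had 263, 199.8, 238 and 229 CPM against 36.2 to 92.2 CPM (log2 fold change 2.03 ± 0.23, adjusted p = 1.5e-07, edgeR). The windows of Ccl22, Ccl17, Il4i1, Il12b and Fscn1 did not hold these letters.

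Survival genes were mostly higher. Of 12 tested against Cd209a cells, 10 were higher and none lower (median 3.04), and of 11 against Xcr1/Clec9a cells, 10 were higher and none lower (median 3.84). Birc2 and Birc3 are also on this list. Bcl2a1b, which encodes a prosurvival Bcl-2 protein, had 1905, 2120.5, 1823 and 2079 CPM against 62.4 to 225 CPM in Cd209a cells (log2 fold change 4.09 ± 0.24, adjusted p = 1.1e-11, edgeR). It shares sequence with Bcl2a1d, which had 1391, 1533, 1136 and 1693 CPM against 105 to 246 CPM, so the split between these copies is uncertain. Serpinb9, an inhibitor of granzyme B, had 504, 309, 520.4 and 357 CPM against 0 to 19.8 CPM (log2 fold change 7.08 ± 0.39, adjusted p = 4.9e-12, edgeR). Cflar, which blocks caspase 8, rose by 2.14. Mcl1 (0.22) and the proapoptotic Bcl2l11 (-0.28) did not pass the test against Cd209a cells. Bcl2 was nearly absent, with 0, 1.39, 0 and 1.45 CPM.

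MHC class I and class II genes went opposite ways against Cd209a cells. All 12 class I genes tested were higher (median 1.67), and of 11 class II genes tested 9 were lower and none higher (median -1.24). H2-Q7, a nonclassical class I gene, had 747, 621, 1224 and 1251 CPM against 39.5 to 131 CPM (log2 fold change 3.50 ± 0.24, adjusted p = 1.4e-10, edgeR). It belongs to a family of near-identical genes, so its counts are uncertain. H2-K1, H2-D1 and B2m, the parts of the classical class I molecule, rose by 1.21, 0.97 and 1.15. The peptide transporter genes Tap1 and Tap2 rose by 1.02 and 1.80, and the immunoproteasome genes Psmb8 and Psmb9 by 1.66 and 1.67. Cd1d1, which presents lipids, had 120.2, 95.8, 122 and 66.8 CPM against 0 to 3.20 CPM (log2 fold change 5.14 ± 0.38, adjusted p = 2.9e-10, edgeR). Against Xcr1/Clec9a cells 8 of the 12 were higher and Psmb9 was lower (log2 fold change -0.52 ± 0.20, adjusted p = 0.045, edgeR), which did not pass without any 1 of the 3 libraries (without Angptl4-/- 5 dpw, -0.44, adjusted p = 0.26, edgeR). Psmb8, counted among the 8, did not pass without any 1 of them either (0.46, adjusted p = 0.17, edgeR without Angptl4+/+ 5 dpw).

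Among class II genes the peptide-loading chaperones were lower than in Cd209a cells. H2-DMb1 had 94.6, 76.3, 20.4 and 76.9 CPM against 936 to 1149 CPM in Cd209a cells (log2 fold change -3.71 ± 0.24, adjusted p = 4.3e-11, edgeR), and H2-DMa had 128, 196, 61.2 and 184 CPM against 795 to 993 CPM (log2 fold change -2.47 ± 0.21, adjusted p = 2.3e-09, edgeR). The ranges of the classes were far apart for both. Ciita, the master regulator of class II transcription, fell by 1.66 on the log2 scale and March1, a ubiquitin ligase that acts on class II molecules, by 6.38. The structural genes fell by 1.34 for H2-Ab1, 0.59 for H2-Eb1 and 0.56 for the invariant chain gene Cd74, the last of which did not pass without either 5 dpw library (-0.60, adjusted p = 0.072, edgeR without Angptl4+/+ and -0.55, adjusted p = 0.055, edgeR without Angptl4-/-). With cells of over 5 UMIs of S100a8 and S100a9 left out, neither H2-Eb1 (-0.42, adjusted p = 0.087, edgeR) nor Cd74 (-0.39, adjusted p = 0.12, edgeR) passed. Ctss, the protease that cuts the invariant chain, was lower than in Cd209a cells (-0.84) and higher than in Xcr1/Clec9a cells (0.61). The latter did not pass without either 5 dpw library (0.64, adjusted p = 0.054, edgeR without Angptl4+/+ and 0.63, adjusted p = 0.11, edgeR without Angptl4-/-). Against Xcr1/Clec9a cells 6 of 12 class II genes were lower and 3 higher.

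Receptors for antigen uptake and microbial patterns were lower with 1 exception. Of 14 tested against Cd209a cells, 13 were lower and Ly75 alone was higher. Clec10a and Mgl2, among the 13, are also markers of the class, which was gated on Cd209a, so their direction is partly set by the gate. Only 4 could be tested against Xcr1/Clec9a cells, of which 3 were lower and Ly75 higher. Ly75, the endocytic receptor DEC-205, had 222, 209, 316 and 212 CPM against 0 to 6.59 CPM in Cd209a cells and 19.3 to 43.1 CPM in Xcr1/Clec9a cells (log2 fold change 2.73 ± 0.32, adjusted p = 5.2e-06, edgeR against the latter). Mrc1, the mannose receptor, had 15.3, 1.39, 3.40 and 0 CPM against 232 to 328 CPM in Cd209a cells (log2 fold change -6.03 ± 0.40, adjusted p = 5.7e-11, edgeR). The lysozyme gene Lyz2 had 17.9, 125, 37.4 and 20.3 CPM against 698 to 3308 CPM (log2 fold change -4.94 ± 0.37, adjusted p = 4.0e-10, edgeR). Mgl2, Clec4a2, Clec4n, the Fc receptor genes Fcgr1, Fcgr2b and Fcgr3, and the endotoxin receptor gene Cd14 fell by between 3.34 and 5.36 on the log2 scale. Some of these are also macrophage genes, and the Cd209a cells held C1qb at 6.59, 139, 0 and 234 CPM against 2.56, 5.55, 0 and 0 CPM in Ccr7 Fscn1 cells; the part of macrophage RNA in these differences was not tested.

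**Figure D3:**
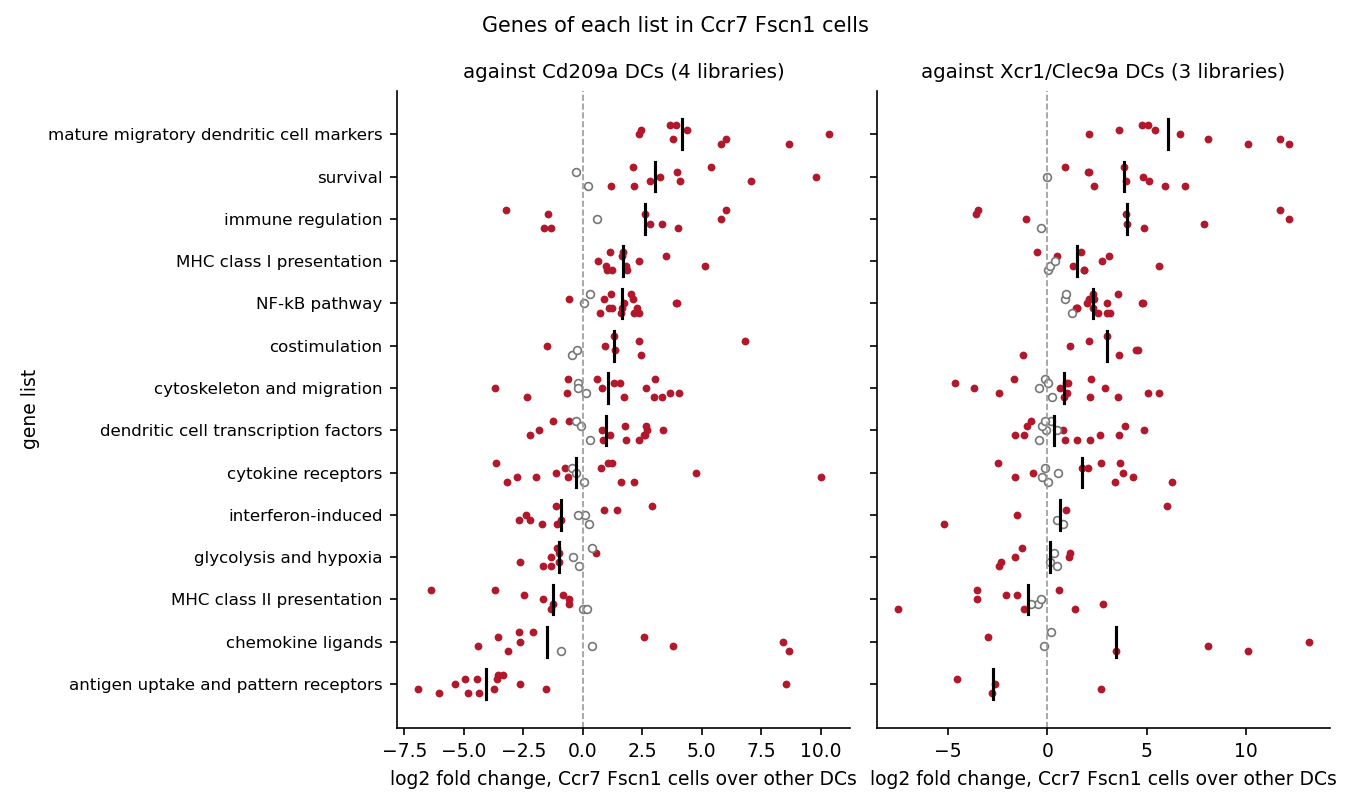
Fitted log2 fold changes of Ccr7 Fscn1 cells over Cd209a cells (left, 4 libraries) and over Xcr1/Clec9a cells (right, 3 libraries), 1 point per gene tested in each list, filled where the adjusted p was under 0.05, with the list median as a bar. Against Cd209a cells all 12 MHC class I genes lie above 0, 9 of 11 MHC class II genes were lower and 13 of 14 uptake and pattern receptor genes were lower.

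Costimulatory genes were mostly higher. Of 9 tested against Cd209a cells, 6 were higher and 1, Cd48, lower, and of 7 tested against Xcr1/Clec9a cells 6 were higher and Cd48 lower. Cd200, whose product signals to the inhibitory receptor CD200R, had 486, 201, 329.9 and 225 CPM against 0 to 2.99 CPM in Cd209a cells (log2 fold change 6.83 ± 0.34, adjusted p = 2.1e-12, edgeR). Cd40, the receptor for T cell help, had 409, 159.6, 344 and 195 CPM against 15.6 to 53.8 CPM (log2 fold change 2.45 ± 0.26, adjusted p = 7.0e-08, edgeR). Both libraries at 1 dpw were above both at 5 dpw. Cd83 rose by 2.37, and Cd80 and Cd86, the ligands of CD28, by 1.33 and 0.91. Icosl, the ligand of the T cell receptor ICOS, had 35.8, 126, 61.2 and 203 CPM against 44.7 to 78.0 CPM (log2 fold change 1.31 ± 0.31, adjusted p = 0.0013, edgeR), and only its 5 dpw libraries were above all Cd209a libraries. Without the Angptl4-/- 5 dpw library Icosl did not pass (0.56, adjusted p = 0.19, edgeR).

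Genes that restrain T cells or cytokine signals were split in direction. Of 11 regulatory genes tested against Cd209a cells, 6 were higher and 4 lower. Il4i1, a secreted enzyme that breaks down phenylalanine and tryptophan (chr7:44816387-44840809, plus strand), had 2145, 1133, 1350.2 and 1042 CPM against 0 to 77.6 CPM in Cd209a cells (log2 fold change 5.80 ± 0.43, adjusted p = 3.4e-10, edgeR), and no UMI in the tested Xcr1/Clec9a cells, at least 242-fold lower there. Socs2, which curbs cytokine receptor signals, had 844, 872, 796 and 809 CPM against 0 to 21.9 CPM in Cd209a cells (log2 fold change 6.02 ± 0.30, adjusted p = 1.7e-12, edgeR). The inhibitory ligand gene Cd274 had 483, 255, 489.7 and 279 CPM against 7.80 to 72.5 CPM (log2 fold change 3.996 ± 0.26, adjusted p = 6.1e-11, edgeR), and Pdcd1lg2, its relative, had 56.3, 81.2, 109 and 61.0 CPM against 0 to 13.8 CPM (log2 fold change 2.83 ± 0.32, adjusted p = 1.7e-07, edgeR). Cd274 was seen in 190 of 217 cells (87.6%), and 139 cells held both Cd274 and Cd40. Socs1 and the death receptor gene Fas were also higher (2.62 and 3.32). Socs3, Tgfb1, Lgals9 and Havcr2 were lower, with -1.32, -1.48, -3.25 and -1.63. Havcr2 did not pass with DESeq2's Wald test (-1.02, adjusted p = 0.29, DESeq2). Ido1, an enzyme of tryptophan breakdown, was nearly absent, with 0, 0.694, 3.40 and 0 CPM.

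Of the chemokine ligands, 4 of 12 genes tested against Cd209a cells were higher and 6 lower. Ccl22, a ligand of the T cell receptor CCR4 (chr8:94745590-94751699, plus strand), had 749, 2075, 1962 and 1668 CPM against 0 to 7.80 CPM in Cd209a cells (log2 fold change 8.66 ± 0.31, adjusted p = 1.1e-14, edgeR). It was lowest in Angptl4+/+ wounds at 1 dpw. Ccl17, the second CCR4 ligand (chr8:94810453-94812036, plus strand), had 7.67, 508, 109 and 540.0 CPM against 0, 113, 0 and 5.33 CPM (log2 fold change 3.80 ± 0.47, adjusted p = 6.3e-07, edgeR), and its levels at 5 dpw lay above those at 1 dpw. Ccl17 was seen in 72 of the 217 cells, of which 70 also held Ccl22, while 102 cells held Ccl22 alone. Ccl5, which draws T cells and monocytes, had 1559.8, 2304, 1319.6 and 2539 CPM against 0 to 8.96 CPM (log2 fold change 8.42 ± 0.29, adjusted p = 1.1e-14, edgeR). Cxcl16, a membrane-bound ligand of CXCR6, had 1458, 964, 1231 and 1113 CPM against 78.0 to 301 CPM (log2 fold change 2.58 ± 0.23, adjusted p = 5.0e-09, edgeR). The inflammatory chemokines Ccl2, Ccl3, Ccl4, Ccl6, Ccl9 and Cxcl10, which draw monocytes and effector cells, were lower, by between 2.09 for Ccl3 and 4.39 for Ccl6 on the log2 scale.

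Cytokine genes were few. Il15, which sustains T and NK cells, had 56.3, 36.1, 74.8 and 43.6 CPM against 0 to 6.59 CPM in Cd209a cells (log2 fold change 3.43 ± 0.40, adjusted p = 3.0e-07, edgeR), and the gene of its presenting chain, Il15ra, had 118, 68.0, 116 and 47.9 CPM against 0 to 4.98 CPM (log2 fold change 4.75 ± 0.41, adjusted p = 3.7e-09, edgeR). Il12b, the p40 subunit of IL-12 and IL-23 (chr11:44400063-44414033, plus strand), had 2.56, 72.9, 173 and 495 CPM. It came from 1, 17, 4 and 11 cells, and the richest cell held 30.5% of its UMIs in Angptl4+/+ wounds at 5 dpw and 80.4% and 42.5% in Angptl4-/- wounds at 1 and 5 dpw. No Il12b UMI was found in Cd209a cells, neutrophils or gated macrophages, while Xcr1/Clec9a cells held 0, 21.2, 0 and 0 CPM. The Il12b difference from Xcr1/Clec9a cells ended when those with any Ccr7 were kept in that class (0.43, adjusted p = 0.52, edgeR). In Ccr7 Fscn1 cells Ccl22 was seen in 31 of the 33 cells with Il12b. The partner subunit genes Il12a and Il23a had 1 UMI each, in Angptl4+/+ wounds at 1 dpw. Il1rn, the antagonist of the IL-1 receptor, was higher than in Cd209a cells (1.39) and Il1b lower (-0.69), although Il1b did not pass without the Angptl4+/+ 5 dpw library (-0.52, adjusted p = 0.082, edgeR) or without the Angptl4-/- 1 dpw library (-0.60, adjusted p = 0.051, edgeR), nor without the library block (adjusted p = 0.33, edgeR). Il1rn did not pass with cells thinned to 3000 UMIs (0.92, adjusted p = 0.074, edgeR). Of 17 cytokine receptor genes, 7 were higher and 7 lower. Il7r, the receptor for IL-7 and TSLP, had 496, 289, 599 and 465 CPM against 0 to 158 CPM (log2 fold change 2.15 ± 0.30, adjusted p = 3.7e-06, edgeR), whereas Ifngr1, the receptor for interferon gamma, had 40.9, 62.4, 44.2 and 52.3 CPM against 527 to 577 CPM (log2 fold change -3.20 ± 0.20, adjusted p = 2.5e-11, edgeR).

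Of 18 transcription factor genes tested against Cd209a cells, 11 were higher and 4 lower. Without Angptl4+/+ 5 dpw, neither the higher Nfil3 (0.69, adjusted p = 0.069, edgeR) nor the lower Runx3 (-0.42, adjusted p = 0.20, edgeR) passed. Runx3 also failed with cells thinned to 3000 UMIs (-0.70, adjusted p = 0.069, edgeR). Etv3, an ETS-family repressor, had 790.1, 709, 833 and 785 CPM against 115 to 204 CPM (log2 fold change 2.60 ± 0.19, adjusted p = 2.7e-10, edgeR). Stat4, which carries IL-12 signals, had 381, 266, 329.9 and 356 CPM against 23.9 to 72.5 CPM (log2 fold change 3.35 ± 0.24, adjusted p = 2.1e-10, edgeR). Irf8 and Batf3, which are needed for the Xcr1/Clec9a lineage, were higher than in Cd209a cells (2.57 and 2.68). Against Xcr1/Clec9a cells Irf8 was lower (log2 fold change -1.65 ± 0.20, adjusted p = 8.8e-06, edgeR) and Batf3 did not pass the test (-0.05). Irf4, a factor of Cd209a cells, had 35.8, 47.2, 20.4 and 65.3 CPM and did not pass the test against them (0.29). Of 5 Xcr1/Clec9a markers tested against Xcr1/Clec9a cells, 4 were lower, among them Wdfy4, needed for cross-presentation (-4.96), the lipid amidase gene Naaa (-8.34) and the integrin gene Itgae (-7.30). Klf4 and Zeb2, factors of monocytes and Cd209a cells, fell by 2.22 and 1.84 on the log2 scale against Cd209a cells.

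Of the list of glycolysis and hypoxia genes, 7 of 11 were lower than in Cd209a cells and 1, Gapdh, higher, and against Xcr1/Clec9a cells 4 of 9 were lower and 2 higher, 1 of them the hypoxia factor gene Hif1a (1.12). Gapdh did not pass without either Angptl4+/+ library (0.39, adjusted p = 0.13, edgeR without 1 dpw and 0.55, adjusted p = 0.062, edgeR without 5 dpw). With cells of over 5 UMIs of S100a8 and S100a9 left out, Hif1a did not pass (1.06, adjusted p = 0.070, edgeR). That setting also lost the Angptl4-/- 1 dpw library, where 2 Xcr1/Clec9a cells were left. Hk2, which phosphorylates glucose, had 17.9, 10.4, 10.2 and 13.1 CPM against 65.7 to 132 CPM (log2 fold change -2.65 ± 0.27, adjusted p = 4.0e-08, edgeR). Interferon-induced genes were split: of 13 tested against Cd209a cells 3, among them Gbp2 and Isg15, were higher and 7 lower, with Ifit3 falling most among the Ifit genes (-2.40). Of the 7, Ifit1, Rsad2 and Irf7 did not pass without Angptl4-/- 5 dpw (-0.43, adjusted p = 0.24, edgeR, -0.52, adjusted p = 0.18, edgeR and -0.61, adjusted p = 0.072, edgeR). Isg15 did not pass without either 1 dpw library or without Angptl4+/+ 5 dpw, where its log2 fold changes ran from 0.56 to 0.80, nor with cells thinned to 3000 UMIs (0.31, adjusted p = 0.52, edgeR). The cell cycle genes Mki67 or Top2a had a UMI in 21 of 217 Ccr7 Fscn1 cells. With edgeR, none of the 3 cell cycle genes tested against Cd209a cells passed in either direction, and none had an unadjusted p under 0.05. Against Xcr1/Clec9a cells Mcm3, Mcm5 and Pcna were lower (-1.77, -2.42 and -1.27). With cells rich in S100a8 and S100a9 left out, and with them the Angptl4-/- 1 dpw library, Pcna did not pass (-0.86, adjusted p = 0.14, edgeR). Against Xcr1/Clec9a cells the genes named for the largest fitted increases were Ccl5, Il4i1, Socs2, Apol7c, H2-M2 and Ramp3, of which the tested Xcr1/Clec9a cells held no UMI, with lower bounds from 57.6-fold (Ramp3, a partner of the calcitonin receptor) to 479.8-fold (Ccl5). Rab7b, Naaa, Sept3, March1, Plet1 and Itgae were named for the largest decreases.

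The 4 conditions were then set side by side within Ccr7 Fscn1 cells. A gene was read when it held at least 50 UMIs over a pair of libraries and counted when its level differed by at least 2-fold. In Angptl4+/+ wounds 143 of 3997 genes (3.58%) were at least 2-fold higher at 5 than at 1 dpw and 308 (7.71%) lower, 11.3% in all. In Angptl4-/- wounds 69 of 2613 (2.64%) were higher and 102 (3.90%) lower, 6.54% in all. After TMM scaling, which sets the bulk of genes equal between libraries, these counts were 221 and 183 in Angptl4+/+ wounds and 96 and 66 in Angptl4-/- wounds, so the excess of lower genes turned into an excess of higher ones. The median log2 ratio over all genes read was -0.18 in Angptl4+/+ wounds and -0.10 in Angptl4-/- wounds, and ratios below are read relative to it. These counts carry no test.

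In both genotypes together, 20 of 2593 genes (0.771%) were at least 2-fold higher at 5 dpw, 44 (1.70%) lower and 4 (0.154%) went opposite ways. Ccl17 had the largest ratio among the genes named here in Angptl4+/+ wounds, with log2 ratios of 6.05 (4.50 to 8.33) in Angptl4+/+ wounds and 2.31 (1.79 to 2.88) in Angptl4-/- wounds. It was seen in 2, 48, 5 and 17 cells. Without the richest cell of each library the ratio was 7.36 (4.88 to 12.67) in Angptl4+/+ wounds and 3.40 in Angptl4-/- wounds. The former then rested on 1 UMI at 1 dpw. Icosl had ratios of 1.81 (1.03 to 2.71) and 1.73 (1.02 to 2.53). The prion protein gene Prnp had 58.8, 249.8, 85.0 and 331 CPM, with ratios of 2.09 (1.48 to 2.76) and 1.96 (1.36 to 2.62). Ccnd1, which encodes cyclin D1, had 43.5, 248, 88.4 and 225 CPM, with ratios of 2.51 (1.81 to 3.31) and 1.35 (0.74 to 2.01). Dkk2, a Wnt antagonist, had 20.5, 74.9, 6.80 and 103 CPM, from 3, 35, 1 and 21 cells. Atp1b1, a sodium pump subunit, had no UMI in Angptl4+/+ wounds at 1 dpw and 0, 55.5, 20.4 and 69.7 CPM over the libraries. Its 6 UMIs in Angptl4-/- wounds at 1 dpw lay in 1 cell. Hist1h1e (a linker histone), Cbx5 (heterochromatin protein 1 alpha) and AY036118 were the other higher genes named by the rule of size, with Il12b, whose ratio in Angptl4+/+ wounds rested on 1 UMI at 1 dpw. Hist1h1e had 2 UMIs in Angptl4+/+ wounds at 1 dpw, from 1 cell, and 34.7% of its UMIs in Angptl4-/- wounds at 5 dpw lay in 1 cell. AY036118 had 549.8, 2202, 829.8 and 2398 CPM.

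Lower at 5 dpw in both genotypes were Tnfaip2, a target of NF-kB, with 184, 55.5, 187 and 43.6 CPM and ratios of -1.73 (-2.21 to -1.25) and -2.10 (-2.80 to -1.44), and the caspase gene Casp6, with 128, 16.0, 116 and 31.9 CPM and ratios of -3.00 (-3.78 to -2.26) and -1.86 (-2.70 to -1.04). Dnah2, an axonemal dynein, had 189, 40.9, 197 and 47.9 CPM. Isg15, an interferon-induced modifier, had 319.6, 119, 313 and 55.2 CPM and ratios of -1.42 (-1.76 to -1.08) and -2.50 (-3.09 to -1.94). All 4 genes were lower in each 5 dpw library than in each 1 dpw library. Myo10, Tcirg1, Ece1, Lilr4b and Cited2 were lower by the same rule, with ratios from -2.56 (Tcirg1) to -1.33 (Cited2) in Angptl4+/+ wounds. Cxcl2, a neutrophil chemokine, had 248, 45.8, 156 and 56.6 CPM, and 63.9% of its UMIs in Angptl4+/+ wounds at 1 dpw came from 1 cell; without the richest cells its ratios were -1.16 and -1.04. For Lilr4b the ratio in Angptl4-/- wounds was -0.59 without them. Neutrophils of these libraries had 28197, 21064, 27671 and 23702 CPM of Cxcl2. S100a8 and S100a9 in Ccr7 Fscn1 cells were also higher at 1 dpw, though the S100a8 interval in Angptl4-/- wounds (-1.20 to 0.19) included 0. Apoe (2.56) and Plac8 (1.54) were higher at 5 dpw in Angptl4+/+ wounds. The part of RNA from neutrophils and other cell types in these levels was not tested.

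**Figure D4:**
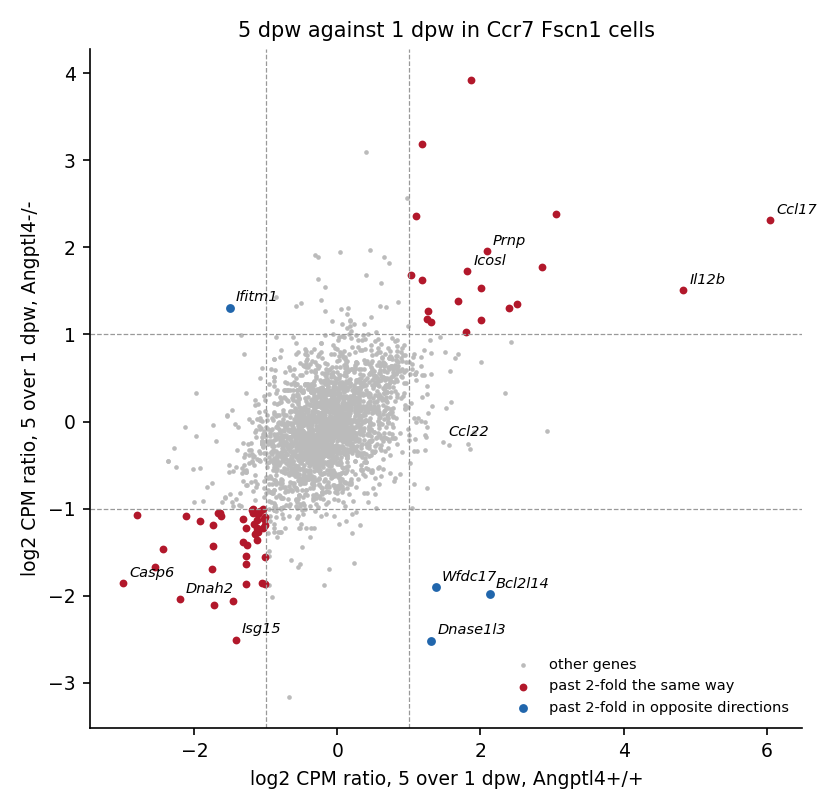
Log2 CPM ratio of 5 over 1 dpw in Ccr7 Fscn1 cells, Angptl4+/+ on the horizontal and Angptl4-/- on the vertical axis, 1 point per gene with at least 50 UMIs in both pairs; dashed lines mark 2-fold, and the Angptl4+/+ value of Atp1b1 is a lower bound. Of 2593 genes, 20 are past 2-fold higher and 44 past 2-fold lower in both genotypes, with Ccl17 furthest to the right at 6.05, and 4 go opposite ways.

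Between the days, counts by list stand beside 11.3% of all genes read past 2-fold either way in Angptl4+/+ wounds and 6.54% in Angptl4-/- wounds. Of MHC class I genes, none of 12 was past 2-fold in either genotype, with medians of -0.15 and -0.28. Of class II genes, none of 11 passed 2-fold in Angptl4+/+ wounds, and H2-DMa (1.59) and H2-DMb1 (1.91) were higher at 5 dpw in Angptl4-/- wounds. The 11 include H2-Aa, which the rule used to choose the cells. NF-kB genes were lower at 5 dpw in 4 of 18 in Angptl4+/+ wounds (Tnip1, Nfkbia, Tnfaip2 and Nfkbiz) and in 1 of 17 (Tnfaip2) in Angptl4-/- wounds. Costimulatory genes differed in 3 of 8 in each genotype: Icosl was higher and Cd40 (-1.36) and Cd200 (-1.28) lower in Angptl4+/+ wounds, and Icosl, Cd48 and Tnfsf4 (OX40 ligand, 3.16) higher in Angptl4-/- wounds. Of 10 interferon-induced genes read in Angptl4+/+ wounds, 5 were lower at 5 dpw (Isg15, Rsad2, Ifit1, Ifit2 and Ifit3) and Mx1 higher. Only 4 could be read in Angptl4-/- wounds, of which Isg15 was lower.

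Between genotypes smaller shares of genes were past 2-fold. At 1 dpw 23 of 2046 genes (1.12%) were at least 2-fold higher and 51 (2.49%) lower in Angptl4-/- wounds (3.62% in all), and at 5 dpw 63 of 4328 (1.46%) were higher and 46 (1.06%) lower (2.52% in all). After TMM scaling the counts at 5 dpw were 55 and 63, and those at 1 dpw 27 and 51. Of 2035 genes read on both days, Il12b alone (0.0491%) was higher in Angptl4-/- wounds on both, Selenom and Rsad2 (0.0983%) were lower on both, and 3 (0.147%) went opposite ways. Il12b had log2 ratios of 6.08 (3.54 to 11.42) at 1 dpw and 2.76 (2.44 to 3.09) at 5 dpw, and without the richest cells that at 5 dpw was 2.50. At 1 dpw it rested on 1 UMI in Angptl4+/+ wounds. Selenom, a selenoprotein of the endoplasmic reticulum, had 284, 77.0, 71.4 and 17.4 CPM, with 59.5% of the UMIs in Angptl4+/+ wounds at 1 dpw in 1 cell, and ratios without the richest cells of -1.87 and -2.14. Rsad2, an antiviral interferon-induced gene, had 105, 36.1, 37.4 and 8.71 CPM in 6, 20, 6 and 4 cells, and ratios without the richest cells of -1.11 and -2.37. Of its UMIs in Angptl4+/+ wounds at 1 dpw, 51.2% lay in 1 cell, and the 1 dpw interval without the richest cells included 0 (-2.59 to 0.19).

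Among list genes at 1 dpw, Ccl22 was 1.39 (1.18 to 1.60) on the log2 scale in Angptl4-/- over Angptl4+/+ wounds, and at 5 dpw -0.31 (-0.41 to -0.22); without the richest cell of each library these were 1.01 and -0.71. Lower at 1 dpw in Angptl4-/- wounds were Il1b, at -1.44 (-1.66 to -1.22), Il1rn (-1.01), the decoy receptor gene Il1r2 (-2.50, or -1.33 without the richest cells), Cxcr4 (-1.11), Irf7 (-1.54), Klf4 (-1.36), Tubb6 (-1.25) and H2-DMa (-1.06). Il1b had 2002, 389, 738 and 539 CPM in Ccr7 Fscn1 cells and 10916, 16457, 10296 and 16465 CPM in neutrophils, and the neutrophil marker sum of Ccr7 Fscn1 cells was 427 CPM in Angptl4+/+ wounds and 316 CPM in Angptl4-/- wounds at 1 dpw; its part in the Il1b levels was not tested. At 5 dpw H2-Q7 (1.01), Nfkbiz (1.32), Bcl6 (1.42) and Tnfsf4 (2.72) were higher in Angptl4-/- wounds and Isg15 (-1.11) lower. Without the richest cells H2-Q7 was 1.00 and Isg15 -0.98. Markers of other cell types also differed at 5 dpw. S100a8 was higher in Angptl4-/- wounds (1.25) and Plac8 lower (-2.60), Lyz2 was -2.62, or -0.39 without the richest cells, and Apoe, at 0 in Angptl4-/- wounds, was at least 17.4-fold lower against the floor of 3 UMIs. Their part in the other differences was not tested. The cell cycle genes Stmn1 and Top2a were also higher there, with 147 and 75.5 CPM against 2.78 and 1.39 CPM, but from 4 and 6 of 54 cells.

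**Figure D5:**
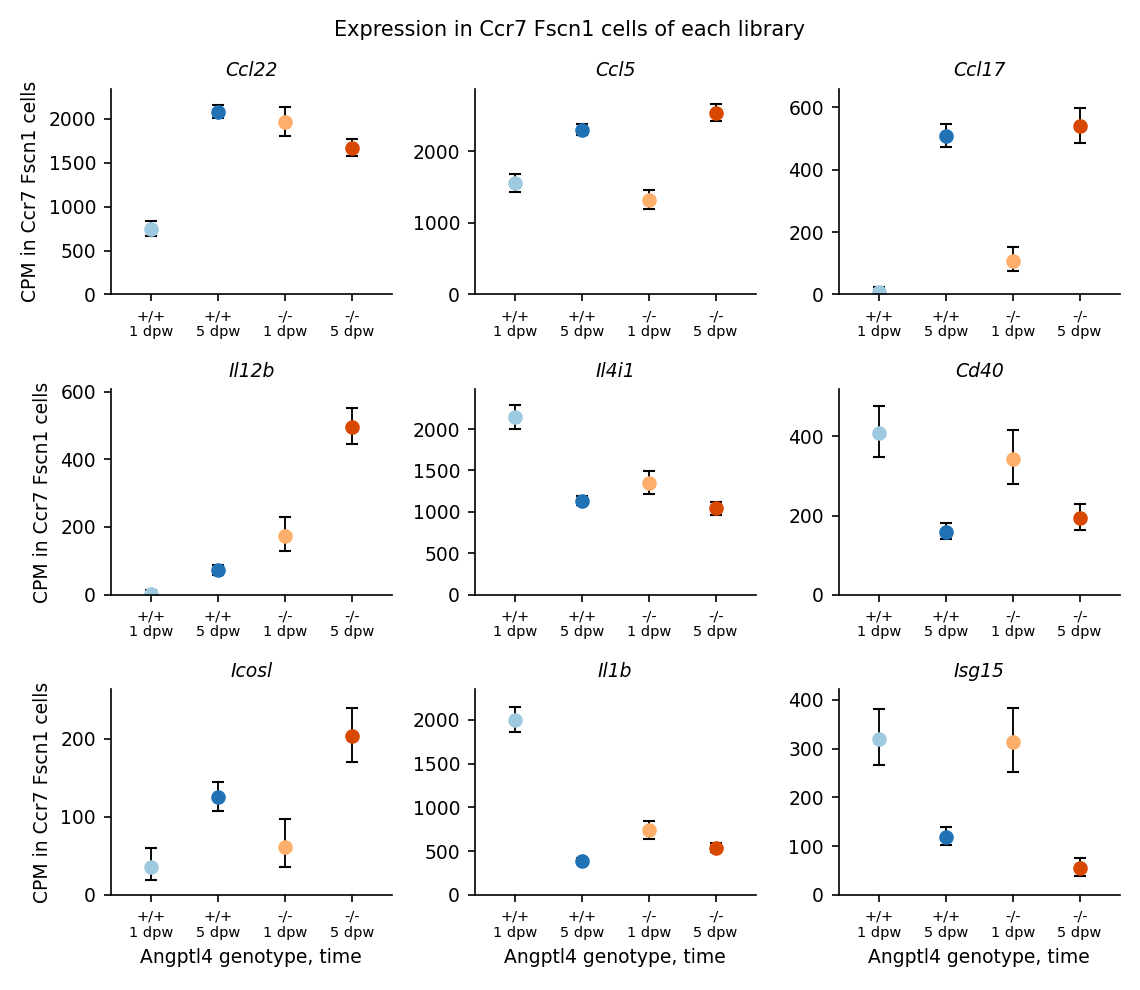
Level of 9 genes in Ccr7 Fscn1 cells of each library, in CPM (1 panel per gene, vertical axes from 0 and differing between panels), with exact Poisson 95% intervals that cover counting error only. Ccl22 is lowest, at 749 CPM, and Il1b highest, at 2002 CPM, in Angptl4+/+ wounds at 1 dpw, and Il12b is highest, at 495 CPM, in Angptl4-/- wounds at 5 dpw.

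Hebp1 and Ifi202b were picked by the study on these samples, so their levels are not independent evidence of a direction. Hebp1, a heme-binding protein gene (chr6:135137522-135198022, minus strand), had 7.67, 18.7, 112 and 141 CPM in Ccr7 Fscn1 cells, higher in both Angptl4-/- libraries than in both Angptl4+/+ libraries, with a log2 ratio of 2.91 (2.28 to 3.58) at 5 dpw. It was also higher than in Cd209a cells, where it had 0, 3.98, 23.4 and 49.0 CPM (log2 fold change 1.94 ± 0.29, adjusted p = 8.3e-06, edgeR), but did not pass without the library block (1.69, adjusted p = 0.097, edgeR). Ifi202b, an interferon-activated gene, had 0, 0, 3.40 and 13.1 CPM in Ccr7 Fscn1 cells and 0, 0, 203 and 122 CPM in gated macrophages.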

How the data were processed

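Live CD45+ wound cells were measured as 4 droplet libraries, 1 for each genotype and day. The authors deposited raw UMI counts per gene and cell for 31053 genes. The submitters' processing notes name Cell Ranger 3.1.0, Seurat 3.0 and mm10, and the deposited counts carry no cell annotation.

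Members and gene lists were chosen with earlier results of these data known. Counts were summed per library and class. Classes were compared with edgeR 4.0.16 (R 4.3.3, glmQLFit, TMM factors, filterByExpr, library as block, Benjamini-Hochberg) over libraries with at least 5 cells of both classes. The p-values measure how far the class difference varies over 4 or 3 libraries. Each library is a different genotype and day, so they do not measure spread between replicates or mice. On simulated data 97.8% of 4-fold and 43.0% of 2-fold changes were recovered against Cd209a cells (5.76% of calls false, 5313 genes), and 95.6% and 24.5% against Xcr1/Clec9a cells (2.68% false, 3824 genes). The simulation fixed 1 dispersion for all genes, gave all libraries the same profile and changed 93 genes by each fold against Cd209a cells. In the data 2684 genes were called against Cd209a cells, so the simulated rates hold for the simulated setting only. Conditions were compared as CPM ratios with exact 95% intervals (scipy 1.17.1), the floor being 3 counts. Share intervals are Clopper-Pearson, and their differences Newcombe. DESeq2 1.42.0 was an alternative.

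Genes named for size had an adjusted p under 0.05, the same sign in every library and at least 100 UMIs, the 12 largest each way against Cd209a cells and 6 against Xcr1/Clec9a cells, or were among the 10 each way with the largest smaller ratio in both genotypes (or on both days). Predicted, ribosomal and mitochondrial genes were passed over. Other named genes come from 32 lists with 288 genes found in the table, while 2 were absent and 2 ambiguous. A few list genes are counted but not reported here by name. The automatic doublet threshold of scanpy 1.11.5 marked only 6 cells, so the top 4% by score were taken as an alternative.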

Additional observations from a re-analysis of the deposited data

Results flagged for a closer look

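Within Ccr7 Fscn1 cells, 13 genes stood out because the days differed in opposite directions in the 2 genotypes, or the genotypes on the 2 days. They were either past 2-fold in both directions or genes of the lists with both intervals clear of 0 and a difference of at least 1. A further 10 list genes, H2-Ab1, Ccl5 and Irf8 among them, had both intervals clear of 0 with a smaller difference. These 10 include Ccr7 and H2-Aa, which the rule used to choose the cells. Each difference below is the log2 ratio of 5 over 1 dpw in Angptl4-/- wounds minus that in Angptl4+/+ wounds. The differences were not tested, since each condition has 1 library, and the intervals in brackets cover counting error only.

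Past 2-fold in opposite directions between the days were Bcl2l14, Ifitm1, Dnase1l3 and Wfdc17, but without the richest cell of each library Ifitm1 alone of the 4 stayed so. For Bcl2l14, a relative of Bcl-2, the difference was -4.11, with day ratios of 2.13 (1.25 to 3.15) in Angptl4+/+ wounds and -1.98 (-2.70 to -1.29) in Angptl4-/- wounds; 69.4% of its UMIs in Angptl4-/- wounds at 1 dpw lay in 1 cell, and without the richest cells the Angptl4-/- ratio was -0.88 (-1.92 to 0.18). For Ifitm1, an interferon-induced membrane protein, it was 2.82, from -1.51 (-1.70 to -1.32) in Angptl4+/+ wounds and 1.31 (0.99 to 1.65) in Angptl4-/- wounds. For Dnase1l3, a secreted DNase of dendritic cells and macrophages, it was -3.83, from 1.31 (0.25 to 2.57) in Angptl4+/+ wounds and -2.52 (-3.40 to -1.70) in Angptl4-/- wounds, but 95.5% of its UMIs in Angptl4-/- wounds at 1 dpw lay in 1 cell, and without the richest cell of each library the Angptl4-/- ratio was 0.69. For Wfdc17 it was -3.27, from 1.38 (0.63 to 2.22) in Angptl4+/+ wounds and -1.90 (-2.44 to -1.37) in Angptl4-/- wounds; 66.7% of its UMIs in Angptl4-/- wounds at 1 dpw lay in 1 cell, and without the richest cells the Angptl4-/- ratio was -0.91 (-1.69 to -0.12).

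In the other 9 genes the genotypes were ordered one way at 1 dpw and the opposite way at 5 dpw. For Ccl22 the difference was -1.70, with Angptl4-/- over Angptl4+/+ log2 ratios of 1.39 (1.18 to 1.60) at 1 dpw and -0.31 (-0.41 to -0.22) at 5 dpw. For Il1b it was 1.91, with ratios of -1.44 (-1.66 to -1.22) at 1 dpw and 0.47 (0.28 to 0.66) at 5 dpw, and for its antagonist Il1rn 1.98, with -1.01 (-1.65 to -0.40) at 1 dpw and 0.97 (0.43 to 1.51) at 5 dpw. The receptor genes Ramp3, Cxcr4 and Ptger4 had differences of 2.07, 1.92 and 1.25; the Ramp3 ratios were -1.07 (-1.38 to -0.76) at 1 dpw and 1.00 (0.75 to 1.25) at 5 dpw, the latter 0.96 without the richest cells. The signalling inhibitor gene Socs3 and the transcription factor genes Runx3 and Bhlhe40 had differences of 1.46, 1.38 and 1.07, and for Runx3 the 5 dpw interval included 0 without the richest cells (-0.07 to 0.83). In each of these 9 genes except Ccl22 the Angptl4-/- level was the lower at 1 dpw and the higher at 5 dpw. In the same cells the neutrophil markers S100a8 and S100a9 had log2 ratios between genotypes of -0.49 (-1.18 to 0.18) and -0.37 (-0.93 to 0.17) at 1 dpw and of 1.25 (0.63 to 1.88) and 0.71 (0.21 to 1.20) at 5 dpw, and their part in these differences was not tested.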

How the results depend on the processing

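Shares of Ccr7 Fscn1 cells and their differences between libraries moved by less than their counting intervals under every rule tried, which were 1 or 3 UMIs of Ccr7 and Fscn1, at least 500 genes, at most 5% mitochondrial UMIs, high doublet scores left out, cells thinned to 3000 UMIs and, chosen after seeing the data, Ccr7 and Fscn1 alone in the rule and shared barcodes left out. Counts of genes at least 2-fold apart, given as higher and lower, moved most. In Angptl4+/+ wounds between the days they were 58 and 78 with cells thinned to 3000 UMIs, 67 and 148 with at least 100 UMIs over the pair, 411 and 895 at 1.5-fold, and 221 and 183 with TMM scaling. Without the cell richest in each gene, an alternative chosen after seeing the data, they were 228 and 224. In Angptl4-/- wounds between the days they were 23 and 15 thinned, 27 and 31 with 100 UMIs, 264 and 366 at 1.5-fold, 66 lower with TMM scaling and 107 and 81 without the richest cells. Between genotypes at 1 dpw they were 4 and 13 thinned, 5 and 24 with 100 UMIs and 135 and 220 at 1.5-fold. At 5 dpw they were 13 and 12 thinned, 25 and 12 with 100 UMIs, 360 and 220 at 1.5-fold, and 50 and 82 without the richest cells. Thinning and the higher minimum leave fewer genes to read, and leaving out 1 cell takes a larger part of a smaller library. Leaving out cells with over 5 UMIs of S100a8 and S100a9, added after seeing the data for these counts, moved none of them past 1.5 times.

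Against Cd209a cells edgeR called 482 genes higher and 413 lower of 1830 tested with cells thinned to 3000 UMIs, and against Xcr1/Clec9a cells 238 and 163 of 907. DESeq2's Wald test called 996 and 963 against Cd209a cells and 605 and 489 against Xcr1/Clec9a cells; the cause of the lower counts was not tested. Leaving out 1 library gave 884 (without Angptl4+/+ 5 dpw) to 1467 higher and 920 to 1485 lower against Cd209a cells, and 657 to 1024 higher and 539 (without Angptl4-/- 5 dpw) to 964 lower against Xcr1/Clec9a cells. Without the library as a block the counts were 1248 and 1235 against Cd209a cells and 909 and 808 against Xcr1/Clec9a cells. A minimum of 10 cells in a sum was not run for Xcr1/Clec9a cells, since fewer than 2 libraries were left. The genes named for their size kept their calls in all 341 values tried against Cd209a cells and all 150 against Xcr1/Clec9a cells. Other list genes lost a call in 76 of 2794 and 79 of 2079 values, and leaving out the library block ended those of Hebp1, Il1b, Nfkbiz, Bst2, Rsad2 and Tubb6 against Cd209a cells and of Actg1, Adam8, Psmb8 and Psmb9 against Xcr1/Clec9a cells.

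Among ratios between conditions with intervals clear of 0, signs turned for 5 genes, and the cause was not tested apart from what the richest cells hold. Ratios whose intervals include 0, such as Ccl17 between genotypes at 5 dpw, are not counted here. Cxcl2 against Xcr1/Clec9a cells, with no call at the start, had log2 fold changes of 1.45 with Ccr7 and Fscn1 alone in the rule and, leaving out 1 library, from -0.79 to 1.56 (without Angptl4+/+ 5 dpw). Between the days in Angptl4-/- wounds, Selenom was 0.46 and Il4i1 0.019 when thinned, and Dnase1l3 was 0.69 without the richest cells. Between genotypes at 1 dpw, Cxcl2 was 0.35 thinned and 0.19 without the richest cells, and Dnase1l3 was -0.10 without them. At 5 dpw Ccl5 was -0.19 thinned and -0.17 without the richest cells. With 23 to 112 cells a library, genes with under 50 UMIs over a pair could not be compared between conditions.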
